A study of Mus musculus with 7 samples.

Results

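The interferon-inducible chemokine ligands Cxcl9, Cxcl10 and Cxcl11, their receptor Cxcr3, and the separate pair of the ligand Cxcl16 and its receptor Cxcr6 were examined in mouse spleen after lipopolysaccharide (LPS), a bacterial cell wall component that activates Toll-like receptor 4. The members were chosen by name, as the ligands and receptors of these 2 axes. Of the 6 members, 5 had a row in the expression table of 17920 genes and all 5 were among the 11378 genes tested. Cxcl11 was not analysed here. The samples were 7 spleens, each sequenced as 1 library. Mice of 8 weeks, labelled C57BL/6, were either wild type (4 libraries) or deficient in GdX (3 libraries). GdX, the product of the X-linked gene Ubl4a, is a ubiquitin-like protein, and its deficiency is labelled GdX-/- or GdX-/Y. Every mouse had received 20 mg/kg LPS by injection into the abdominal cavity. Spleens were taken 90 min later (2 wild-type and 2 GdX-deficient libraries) or 6 h later (2 wild-type libraries and 1 GdX-deficient library). A spleen without LPS was not analysed here, so a level cannot be placed above or below the resting one. With 1 GdX-deficient library at 6 h, that library was assumed in each test to vary as the other groups did, and every p-value that involves it rests on this assumption.

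CXCL9, CXCL10 and CXCL11 are secreted chemokines that attract activated T cells and natural killer (NK) cells through CXCR3. Interferon gamma is the classical inducer of Cxcl9, whereas Cxcl10 also responds to type I interferon and to NF-kB, so that it can be made early after LPS without interferon gamma. CXCL16 is made as a membrane-anchored protein on macrophages and dendritic cells, is released by the proteases ADAM10 and ADAM17, and binds CXCR6, a receptor of memory and tissue-resident T cells and of NK T cells. In the RefSeq annotation of mouse assembly GRCm38.p6, Cxcl9 (gene 17329) lies on chr5:92321331-92328079 and Cxcl10 (gene 15945) on chr5:92346638-92348889, both on the minus strand and 18.6 kb apart. Cxcl11 (gene 56066, chr5:92359544-92363296, minus strand) is annotated there as a transcribed pseudogene. Cxcl16 (gene 66102) lies on chr11:70454389-70459984 and Cxcr3 (gene 12766) on chrX:101731535-101734147, both on the minus strand. Cxcr6 (gene 80901) lies on the plus strand at chr9:123806477-123811754.

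The promoters of Cxcl10 and Cxcl9 are shown because these 2 ligands are both known interferon and NF-kB targets and had different time courses here. Each sequence is the RefSeq promoter on GRCm38.p6, from 250 bases before the transcription start to 50 bases after it, written 5′ to 3′ on the minus strand, with motif matches in capitals. The Cxcl10 window is chr5:92348840-92349139 and the Cxcl9 window chr5:92328030-92328329.
Cxcl10 promoter: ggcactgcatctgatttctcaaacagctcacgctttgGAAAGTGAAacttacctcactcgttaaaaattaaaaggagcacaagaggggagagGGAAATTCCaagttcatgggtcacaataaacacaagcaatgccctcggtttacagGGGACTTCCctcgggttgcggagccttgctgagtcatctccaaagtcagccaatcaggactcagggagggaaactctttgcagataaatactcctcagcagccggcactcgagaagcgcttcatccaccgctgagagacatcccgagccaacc
Cxcl9 promoter: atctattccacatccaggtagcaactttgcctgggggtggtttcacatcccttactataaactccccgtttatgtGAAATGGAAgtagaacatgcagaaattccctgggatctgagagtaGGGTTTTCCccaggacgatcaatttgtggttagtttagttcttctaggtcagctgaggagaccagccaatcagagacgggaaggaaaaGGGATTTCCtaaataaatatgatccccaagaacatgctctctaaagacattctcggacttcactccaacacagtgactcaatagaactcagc
Matches were searched on both strands. The core letters of an interferon-stimulated response element were searched as GAAANNGAA, a gamma-activated site as TTCNNNGAA and an NF-kB site as GGNNNTTCC. The Cxcl10 window held GAAAGTGAA, whose first base is 213 bases before the start, and the NF-kB letters GGAAATTCC and GGGACTTCC at 158 and 103 bases before it. The Cxcl9 window held GAAATGGAA at 175 bases, GGGTTTTCC at 130 bases and GGGATTTCC at 42 bases before the start. Both ligands thus held GAAANNGAA upstream of 2 matches to GGNNNTTCC, and neither window held TTCNNNGAA. The letters had been shortened after a first search with longer ones, in which Cxcl9 had no interferon-stimulated response element match. The shared arrangement therefore rests on letters chosen after these sequences were seen. A window without TTCNNNGAA is not shown to lack an element that responds to interferon gamma. The windows of Cxcr3 and Cxcr6 held none of the 3 motifs. Among 32851 promoters of the same length, 8.56% held GAAANNGAA, 8.3% TTCNNNGAA and 18.5% GGNNNTTCC. These matches describe the letters and were not tested as binding sites. Cxcl16 had no promoter among the sequences used here.

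Library depth, estimated from the steps between low values, was similar, at 18800000 to 21000000 fragments. Values are FPKM (fragments per kilobase of transcript, relative to library depth), so levels can be compared between genes. The targeted gene did not separate the genotypes by itself. Ubl4a was listed at 4.03 to 10.56 FPKM in the GdX-deficient and 5.62 to 14.01 FPKM in the wild-type libraries, but Gm44504, an entry that overlaps it, was at 0.66 to 1.86 against 14.52 to 51.10 FPKM. The adult beta-globin gene Hbb-b1 was at 16577 to 44998 FPKM in the GdX-deficient and 6.70 to 13.80 FPKM in the wild-type libraries, and Hbb-b2, its neighbour, at 4058.53 to 11053.1 against 1.55 to 4.68 FPKM. The genotypes thus also differed at the beta-globin genes in all 7 libraries, and an effect of GdX deficiency and a difference in genetic background cannot be told apart in any genotype comparison given here. Spleen markers of B cells, T cells and red pulp macrophages were present in all libraries, with none at 0. Pancreas markers summed to at most 8.45 FPKM and fat markers to at most 1.32 FPKM. In the wild-type pairs the difference between replicates followed transcript length (Spearman's rho across 11180 genes of -0.445 at 90 min and -0.589 at 6 h). Genes are not independent replicates, and the removal of this trend was tried as an alternative.

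Cxcl10 was the most abundant member and was the only one lower in GdX-deficient than in wild-type libraries at both times. It was between the 29th and the 172nd most abundant gene of a library. At 90 min Cxcl10 was at 2354.91 and 2474.74 FPKM in wild type and at 2193.94 and 1212.08 FPKM in GdX-deficient spleens. At 6 h it was at 1394.22 and 1304.23 FPKM in wild type and at 359.52 FPKM in the GdX-deficient library. The GdX-deficient values lay below both wild-type values at each time, and the replicate with 1212.08 FPKM stood well below its partner. Being lower without overlap at both times held for 13% of all genes tested. The GdX-deficient library at 6 h was the lowest of all 7 by a wide margin.

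In limma, a linear model across all genes on the log2(FPKM + 1) scale, the Cxcl10 genotype difference at 6 h was -1.90 (SE 0.42, 95% interval -2.85 to -0.96, adjusted p = 0.0435), which corresponded to a wild-type mean 3.75 times the GdX-deficient value. Cxcl10 was the only 1 of the 5 members past the adjusted threshold of 0.05 in that comparison, where 3.96% of all genes tested passed it and 1.05% passed it as lower. An unadjusted limma p under 0.05 was found for 3 members, against 28.4% of all genes. The call depended on the processing. The limma adjusted p ranged from 0.00193 to 0.106 over 14 settings and passed in 11 of them, and it was lost without the filter on low values (adjusted p = 0.106), after quantile normalization (-1.48, adjusted p = 0.0905) and after rescaling without globin genes (-1.63, adjusted p = 0.0544). At 90 min the Cxcl10 difference was -0.57 (SE 0.34, 95% interval -1.34 to 0.21, limma adjusted p = 0.630). It was -0.14 without GdX-deficient replicate 2 and -0.99 without replicate 1, so this value depended on which of the pair was kept. At 90 min the genotypes did not overlap for 3 members (Cxcl9, Cxcl10 and Cxcl16), against 47.5% of all genes. None of the 5 members passed at 90 min, where 0.0176% of all genes did, and 1 member (Cxcl16) had an unadjusted limma p under 0.05, against 7.58% of all genes.

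Cxcl10 values were lower at 6 h than at 90 min in both genotypes, but neither difference passed the test. The wild-type means were 2415 ± 84.7 FPKM at 90 min and 1349 ± 63.6 FPKM at 6 h (SD, n = 2 each), a ratio of 1.79, and the pairs did not overlap. Of the 5 members, 4 had wild-type pairs that did not overlap between the times (Cxcl9 higher at 6 h; Cxcl10, Cxcl16 and Cxcr6 lower), against 57.9% of all genes tested. The wild-type difference over time was -0.84 (SE 0.34, limma adjusted p = 0.145). In GdX-deficient spleens the mean of 1703 ± 694 FPKM (SD, n = 2) was 4.74 times the single 6 h value. That difference over time was -2.18 (SE 0.42, limma adjusted p = 0.115). None of the 5 members passed in GdX-deficient spleens over time, and no gene of the 11378 did (0%). An unadjusted limma p under 0.05 was found for 3 of the 5 members (Cxcl10, Cxcl16 and Cxcr3) and for 910 of all genes, or 8%.

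**Figure D1:**
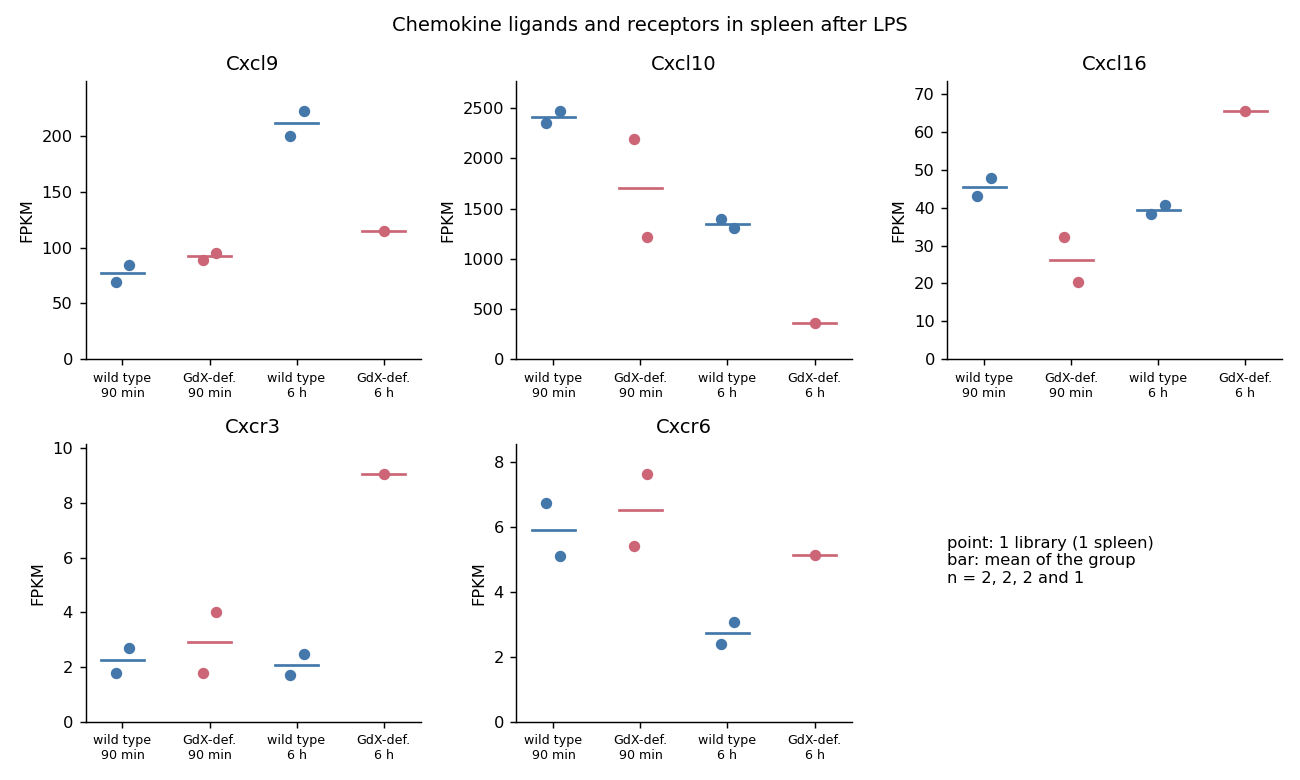
FPKM of Cxcl9, Cxcl10, Cxcl16, Cxcr3 and Cxcr6 on linear axes in each of the 4 groups, with 1 point per library and a bar at the group mean (n = 2, 2, 2 and 1). The 6 h GdX-deficient library is the lowest for Cxcl10 (359.52 FPKM) and the highest for Cxcr3 (9.08 FPKM) and Cxcl16 (65.65 FPKM), and Cxcl9 is highest in the 6 h wild-type pair.

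Cxcl9 rose between 90 min and 6 h in wild-type spleen. It was at 69.17 and 84.83 FPKM at 90 min and at 200.12 and 222.86 FPKM at 6 h, a ratio of means of 2.75. The GdX-deficient libraries were at 89.28 and 95.32 FPKM at 90 min and at 114.53 FPKM at 6 h, a ratio of 1.24. The GdX-deficient values thus lay above the wild-type pair at 90 min and below it at 6 h, a change of side in this order that 0.967% of all genes tested showed. The wild-type rise was 1.45 on the log2(FPKM + 1) scale (SE 0.24, 95% interval 0.91 to 2.00, limma adjusted p = 0.00873). Cxcl9 was 1 of 5 members past the threshold over time in wild type, where 10.7% of all genes passed and 4.39% passed as higher. Without wild-type replicate 1 at 90 min the rise was 1.31 and the limma adjusted p 0.0660, the only 1 of 16 settings in which the call was lost, and the range over the settings was 0.00202 to 0.0660.

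The genotype differences of Cxcl9 did not pass the test. They were 0.26 at 90 min (SE 0.24, 95% interval -0.28 to 0.81, limma adjusted p = 0.682) and -0.88 at 6 h (SE 0.30, 95% interval -1.54 to -0.21, limma adjusted p = 0.102). The 6 h wild-type mean was 1.85 times the GdX-deficient value. With the trend on transcript length removed, an alternative chosen after the data had been seen, the 6 h difference was -1.21 and passed (limma adjusted p = 0.0317, the lowest of 14 settings, which reached 0.275). The change of the genotype difference between the times was -1.14 (SE 0.38, 95% interval -2.00 to -0.28, limma adjusted p = 0.329). None of the 5 members passed that interaction test, which 0.0703% of all genes passed, and 4 members had an unadjusted limma p under 0.05, against 9.98% of all genes. With a single 6 h GdX-deficient library this test has little power, so a miss does not show that the genotype difference was the same at both times.

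The balance of the 2 ligands therefore differed by time in every library. The ratio of Cxcl10 to Cxcl9 in FPKM was 34.0 and 29.2 in wild type and 24.6 and 12.7 in GdX-deficient spleens at 90 min. At 6 h it was 6.97 and 5.85 in wild type and 3.14 in the GdX-deficient library. All 4 of the 90 min ratios lay above all 3 of the 6 h ratios, and within each time the GdX-deficient ratios lay below the wild-type ones. Cxcl10 made up 92.7% to 97.1% of the sum of both ligands at 90 min, 87.4% and 85.4% in wild type at 6 h, and 75.8% in the GdX-deficient library at 6 h. The ratios were not tested.

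Cxcl16, the ligand of CXCR6, was lower in GdX-deficient than in wild-type libraries at 90 min and higher at 6 h, without passing the test at either time. In wild type it was at 43.18 and 47.77 FPKM at 90 min and at 38.28 and 40.63 FPKM at 6 h. In GdX-deficient spleens it was at 32.22 and 20.41 FPKM at 90 min and at 65.65 FPKM at 6 h. It was thus below the wild-type pair at 90 min (ratio of means 1.73, wild type over GdX-deficient) and above it at 6 h (ratio 1.66, GdX-deficient over wild type), an order of sides that 6.82% of all genes tested showed. The differences were -0.80 at 90 min (SE 0.28, 95% interval -1.43 to -0.17, limma adjusted p = 0.603) and 0.72 at 6 h (SE 0.34, 95% interval -0.05 to 1.49, limma adjusted p = 0.200). The change between the times was 1.52 (SE 0.44, 95% interval 0.52 to 2.52, limma adjusted p = 0.247). Over time, Cxcl16 differed by -0.20 in wild type (SE 0.28, limma adjusted p = 0.690) and by 1.32 in GdX-deficient spleens (SE 0.34, limma adjusted p = 0.228), where the 6 h value was 2.49 times the 90 min mean.

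CXCL16 is displayed mainly by macrophages and dendritic cells. For genotype at 6 h, 3 of 11 monocyte and macrophage markers and 2 of 7 tested dendritic cell markers passed as higher and none as lower, where 2.91% of all genes tested passed as higher. The monocyte and macrophage markers summed to 846 FPKM in that library and to 440 to 537 FPKM in the wild-type pair. At 90 min the sums were 556 to 604 FPKM in GdX-deficient and 698 to 717 FPKM in wild-type spleens. Most of the 90 min gap in this sum lay in Marco (49.6 against 117 FPKM in the group means) and Vcam1 (134 against 177 FPKM), named after their values were seen. The median difference of the 11 markers at 90 min was only -0.10, against 0.07 for all genes, with 8 negative. It was -0.07 against 0.01 by quantiles, with 6 negative, and 0.10 against 0.25 after rescaling without globin genes, with 4 negative. The sum lay on the same side as Cxcl16 at each time, as did that of the 8 stromal cell markers, at 82.0 to 200 against 326 to 461 FPKM at 90 min and 206 against 133 to 182 FPKM at 6 h. Neutrophil markers summed to 1109 to 4854 FPKM in GdX-deficient and 805 to 1266 FPKM in wild-type spleens at 90 min, and to 2616 against 801 to 1157 FPKM at 6 h. Red cell markers summed to 1026 to 1227 against 548 to 620 FPKM at 90 min and to 601 against 197 to 271 FPKM at 6 h. The 8 dendritic cell markers summed to 199 FPKM in the 6 h GdX-deficient library, below the 231 to 353 FPKM of the wild-type pair, and Ccr7, a chemokine receptor gene, made up most of that sum. Without Ccr7, left out after its values were seen, the other 7 summed to 43.8 FPKM against 18.9 to 22.0 FPKM. At 90 min the 8 markers summed to 96.5 to 160 FPKM in GdX-deficient and 182 to 205 FPKM in wild-type spleens. Without Ccr7 the 90 min sums were 34.9 to 40.8 against 42.9 to 44.8 FPKM. The dendritic cell sum without Ccr7 thus also lay on the same side as Cxcl16 at each time. The part of these markers in the Cxcl16 values was not tested. In whole spleen RNA, fewer cells of a type and less RNA per cell cannot be told apart.

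**Figure D2:**
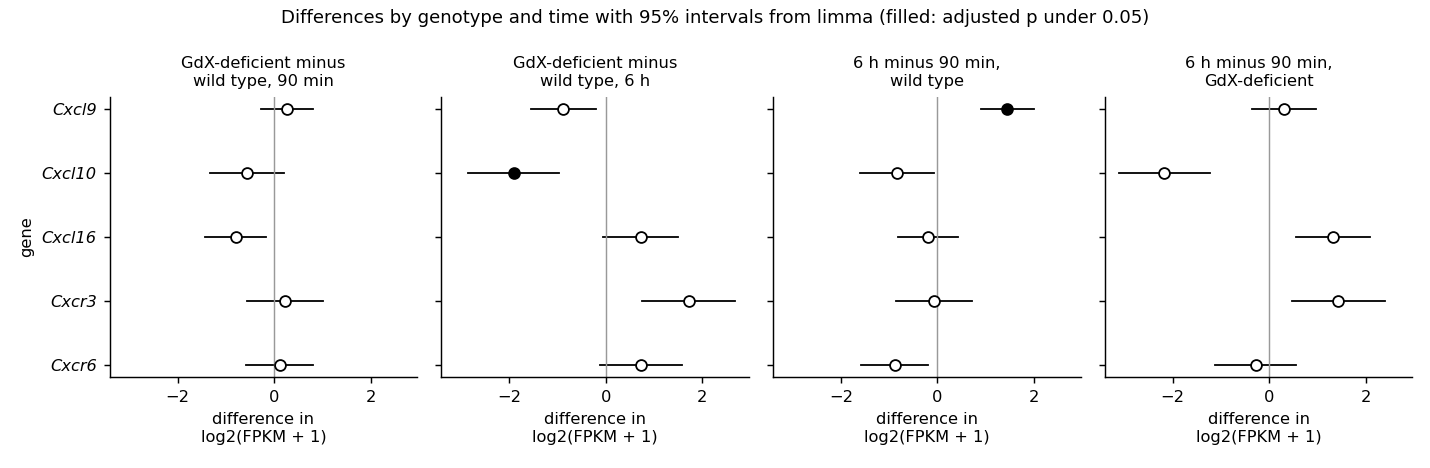
Differences in log2(FPKM + 1) for the 5 members in 4 comparisons, with points at the limma estimates and lines for the 95% intervals, where filled points passed the adjusted threshold of 0.05. Filled points are Cxcl10 for genotype at 6 h (-1.90) and Cxcl9 for time in wild type (1.45), and Cxcr3 for genotype at 6 h (1.72) lies just short of the threshold.

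Cxcr3, the receptor of CXCL9 and CXCL10, was a low gene with 1 high library. It was at 1.77 and 2.71 FPKM in wild type and at 1.78 and 4.02 FPKM in GdX-deficient spleens at 90 min. At 6 h it was at 1.71 and 2.46 FPKM in wild type and at 9.08 FPKM in the GdX-deficient library. The genotypes overlapped at 90 min, and the 6 h GdX-deficient value was 4.35 times the wild-type mean. About 310 fragments stood behind that value and about 62 to 130 behind each of the others. The 6 h difference was 1.72 (SE 0.43, 95% interval 0.76 to 2.68, limma adjusted p = 0.0561). It missed the threshold, passed in 8 of 13 settings, among them each of the 6 that left out another library, and its limma adjusted p ranged from 0.00499 to 0.130. With the replicate number as a block it was 1.99 (limma adjusted p = 0.00583). At 90 min the difference was 0.22 (SE 0.35, 95% interval -0.57 to 1.01, limma adjusted p = 0.810), and over time in wild type it was -0.07 (SE 0.35, limma adjusted p = 0.925). At 6 h all 5 members lay outside the wild-type pair, as did 80.3% of all genes tested, so this lack of overlap says little about them.

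Cxcr6 values were lower at 6 h than at 90 min in wild type, without passing the test. It was at 6.73 and 5.11 FPKM at 90 min and at 2.39 and 3.06 FPKM at 6 h, a ratio of means of 2.17 with no overlap. The GdX-deficient libraries were at 5.43 and 7.65 FPKM at 90 min and at 5.13 FPKM at 6 h. Only the 6 h wild-type pair stood below the others. The wild-type difference over time was -0.89 (SE 0.31, 95% interval -1.58 to -0.20, limma adjusted p = 0.0950), which passed in 2 of 16 settings: with the replicate block (limma adjusted p = 0.0454) and with the length trend removed (0.0193). The range over the settings was 0.0193 to 0.516. The genotype difference was 0.12 at 90 min (SE 0.31, 95% interval -0.57 to 0.81, limma adjusted p = 0.890) and 0.72 at 6 h (SE 0.38, 95% interval -0.12 to 1.57, limma adjusted p = 0.237), and the latter came to 0.13 after quantile normalization.

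Some T cell markers fell over time in wild type. Of 8 tested, 4 passed as lower and none as higher between 90 min and 6 h in wild type, where 6.32% of all genes tested passed as lower. In the same comparison, 5 of 7 dendritic cell, 5 of 11 monocyte and macrophage and 5 of 6 red cell markers passed as lower. So did 3 of 7 B cell, 2 of 8 stromal cell and 1 of 4 endothelium markers. No neutrophil marker and no NK and effector lymphocyte marker did. The fall was thus not particular to T cells. The sum of the 8 T cell markers was 344 to 402 FPKM at 90 min and 161 to 183 FPKM at 6 h. The GdX-deficient sums were 298 to 381 FPKM at 90 min and 326 FPKM at 6 h. Cd3e, a part of the T cell receptor complex, was at 33.48 and 38.20 FPKM at 90 min and at 15.22 and 17.56 FPKM at 6 h in wild type. In GdX-deficient spleens Cd3e was at 31.57 and 38.20 FPKM at 90 min and at 36.32 FPKM at 6 h. The ratio of Cxcr6 to Cd3e was 0.134 to 0.201 over all 7 libraries. It was 0.141 in the 6 h GdX-deficient library, below the 6 h wild-type pair (0.157 and 0.174). It was also below the 90 min GdX-deficient pair (0.172 and 0.200), and within the range of the 90 min wild-type pair (0.134 and 0.201). Against some other T cell markers the Cxcr6 ratio varied more, at 0.0397 to 0.122 for Cd3d and 1.02 to 5.75 for Cd28. For Lck it was 0.0583 to 0.0774. The ratio of Cxcr3 to Cd3e was 0.0529 to 0.105 at 90 min, 0.112 and 0.140 in wild type at 6 h, and 0.250 in the GdX-deficient library at 6 h. Set against each T cell marker in turn, the Cxcr3 ratio was highest of the 7 libraries in the 6 h GdX-deficient one for 7 of 8 markers (all but Cd28), and the Cxcr6 ratio for none of 8. Set against the markers of NK and effector lymphocytes, it was highest there for 11 of 13 (all but Ncr1 and Ccl5), and the Cxcr6 ratio for none of 13. The Cxcr3 to Ncr1 ratio was 0.916 in that library and 0.847 and 0.932 in the 6 h wild-type pair. These ratios are descriptions, and the part of cell content in them was not tested.

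Cxcr3 is also carried by NK cells. The 14 markers of NK and effector lymphocytes summed to 1343 FPKM in the 6 h GdX-deficient library and to 1665 to 1784 FPKM in the 6 h wild-type pair. Most of that sum was Ccl5, a chemokine gene, at 904.58 FPKM against 1267.14 and 1356.55 FPKM. Without Ccl5, left out after its values were seen, the other 13 summed to 438 FPKM against 398 to 427 FPKM, which turns the direction. Of the 13 tested markers at 6 h, 8 had a positive and 5 a negative difference, and by limma 1 passed as lower (Tbx21) and none as higher, where 1.05% and 2.91% of all genes tested did. Ncr1, an NK cell receptor gene, was at 6.65 and 12.68 FPKM in GdX-deficient against 2.87 and 3.53 FPKM in wild-type spleens at 90 min, and at 9.91 against 2.02 and 2.64 FPKM at 6 h. Ncr1, chosen after its values were seen, had the largest positive difference of this list at 6 h, and Tbx21, Gzma, Gzmb, Ccl5 and Il12rb2 had negative ones. B cell markers summed to 1785 FPKM in the 6 h GdX-deficient library and to 486 to 496 FPKM in the wild-type pair. These marker sums moved with genotype at 6 h beside the receptor values, and their part in them was not tested.

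**Figure D3:**
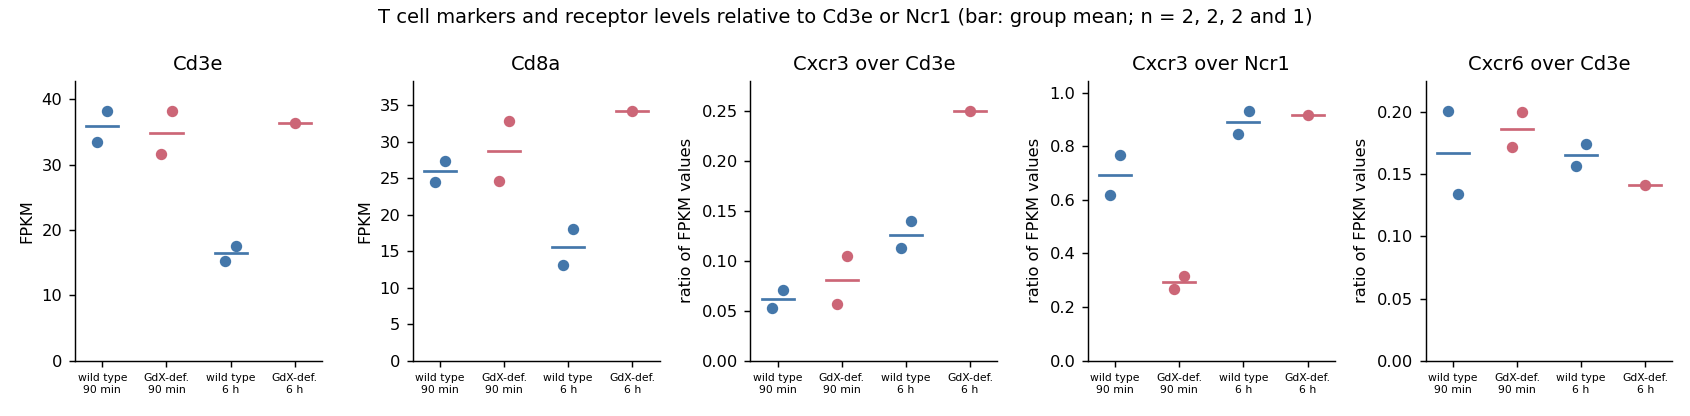
FPKM of the T cell markers Cd3e and Cd8a, and the ratios of Cxcr3 to Cd3e, of Cxcr3 to Ncr1 and of Cxcr6 to Cd3e, on linear axes, with 1 point per library and a bar at the group mean (n = 2, 2, 2 and 1). In the 6 h GdX-deficient library the ratio of Cxcr3 to Cd3e is the highest of all libraries (0.250), the ratio of Cxcr3 to Ncr1 (0.916) lies within the 6 h wild-type pair, and the ratio of Cxcr6 to Cd3e is 0.141.

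Ifng, the gene of interferon gamma, rose over time in wild type and was lower in the 6 h GdX-deficient library. Ifng was at 9.53 and 10.07 FPKM in wild type at 90 min and at 35.79 and 42.32 FPKM at 6 h. In GdX-deficient spleens Ifng was at 18.68 and 7.86 FPKM at 90 min and at 1.99 FPKM at 6 h. The wild-type mean at 6 h was 19.6 times the GdX-deficient value. The comparisons of genotype at 6 h and of time in wild type share the 6 h wild-type pair. Ifng rose over time in wild type by 1.89 (SE 0.38, limma adjusted p = 0.0167) and was lower in the GdX-deficient library at 6 h by -3.74 (SE 0.46, limma adjusted p = 0.00820). Tbx21, the transcription factor of type 1 T cells and NK cells, was at 24.92 and 33.72 FPKM in wild type at 6 h, against 8.01 FPKM in the single GdX-deficient library of that time. Its difference there was -1.74 (limma adjusted p = 0.0456), and its rise over time in wild type was 1.97 (limma adjusted p = 0.00766). The 6 h Tbx21 call passed in 9 of 14 settings, with a limma adjusted p of 0.0107 to 0.108. The 6 h Ifng call passed in 13 of 14 settings and was lost without the filter (limma adjusted p = 0.0548), and the rise of Ifng over time in wild type passed in 15 of 16 and was lost there too (0.0720).

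The genes of interferon signalling, Ifng among them, did not follow a single course. Of the 22 tested genes of this list, 1 passed as higher and 1 as lower at 6 h between genotypes (2.91% and 1.05% of all genes tested did). None passed at 90 min (0.0176% of all genes), and 3 had an unadjusted limma p under 0.05 (7.58% of all genes). Over time in wild type 1 passed as higher and 3 as lower (4.39% and 6.32% of all genes). For genotype at 6 h the median difference of the 22 genes was 0.36, against 0.32 for all genes, with 15 values positive and 7 negative. The genes named below are thus not a picture of the whole list. Ifnb1, the type I interferon gene that LPS induces early, was at 12.11 and 5.68 FPKM in wild type at 90 min and at 0.39 and 0.20 FPKM at 6 h, a fall of -2.86 (limma adjusted p = 0.0223). Il12b, which encodes a subunit of interleukin 12, fell by 3.79 over time in wild type (limma adjusted p = 0.0170). Without the filter on low values the calls of Ifnb1 (limma adjusted p = 0.116) and of Il12b (0.0995) were lost, and each passed in its other settings, in which the Ifnb1 value was -4.45 to -2.37. Socs3, a feedback inhibitor of cytokine signalling, fell by 1.76 in wild type (limma adjusted p = 0.0387). It was named after its values were seen, and it passed in 13 of 16 settings, with a limma adjusted p of up to 0.138. Tlr4, the LPS receptor gene, was the one that passed as higher at 6 h, by 1.63 (limma adjusted p = 0.0481). It passed in 9 of 13 settings, in which the difference was 1.01 to 2.28 and the limma adjusted p reached 0.108. The values of Irf1 and Irf8, interferon regulatory transcription factors, were 225.09 and 168.39 FPKM in the 6 h GdX-deficient library, against 319.92 to 366.35 and 204.83 to 343.01 FPKM in wild type, and neither difference passed. Socs1 was at 75.50 against 193.62 and 200.61 FPKM (-1.37, limma adjusted p = 0.0684).

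Among interferon gamma target genes, the counts that passed were near the shares of all genes. Of the 21 tested, 1 passed as higher at 6 h between genotypes and none as lower, where 3.96% of all genes tested passed. None passed at 90 min, and 1 had an unadjusted limma p under 0.05 there, against 7.58% of all genes. Over time in wild type 2 passed as higher and none as lower, against 10.7% of all genes. At 6 h an unadjusted limma p under 0.05 was found for 1 of the 21, against 28.4% of all genes. At 90 min the genotype difference of the list had a median of 0.24 against 0.07 for all genes, and 18 of 21 values were positive. It was 0.36 against 0.01 after quantile normalization (19 of 21 positive) and 0.44 against 0.25 after rescaling without globin genes (19 of 21). At 6 h the median difference of the list was -0.23, against 0.32 for all genes, and 16 of 21 values were below 0. After rescaling without globin genes, which moves the whole table, the list median was 0.04 against 0.55 for all genes, with 9 of 21 values below 0. After quantile normalization it was -0.01 against -0.02 for all genes, so the list lay below all genes under 2 of these 3 scalings. Gbp2, a guanylate-binding protein gene, rose over time in wild type by 1.69 (limma adjusted p = 0.0122), and Upp1, a uridine phosphorylase gene, by 1.62 (limma adjusted p = 0.0194). The Upp1 call passed in 13 of 16 settings, with a limma adjusted p of up to 0.0729. Ciita, the regulator of MHC class II genes, was the one that passed at 6 h, by 2.79 (limma adjusted p = 0.0382), beside the B cell marker sums given above. Without the filter on low values the calls of Ciita (limma adjusted p = 0.112) and of Gbp2 (0.0574) were lost, and each passed in its other settings. Over time in wild type the median of the list was 0.35 against 0.05 for all genes, and 15 of 21 values were positive.

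**Figure D4:**
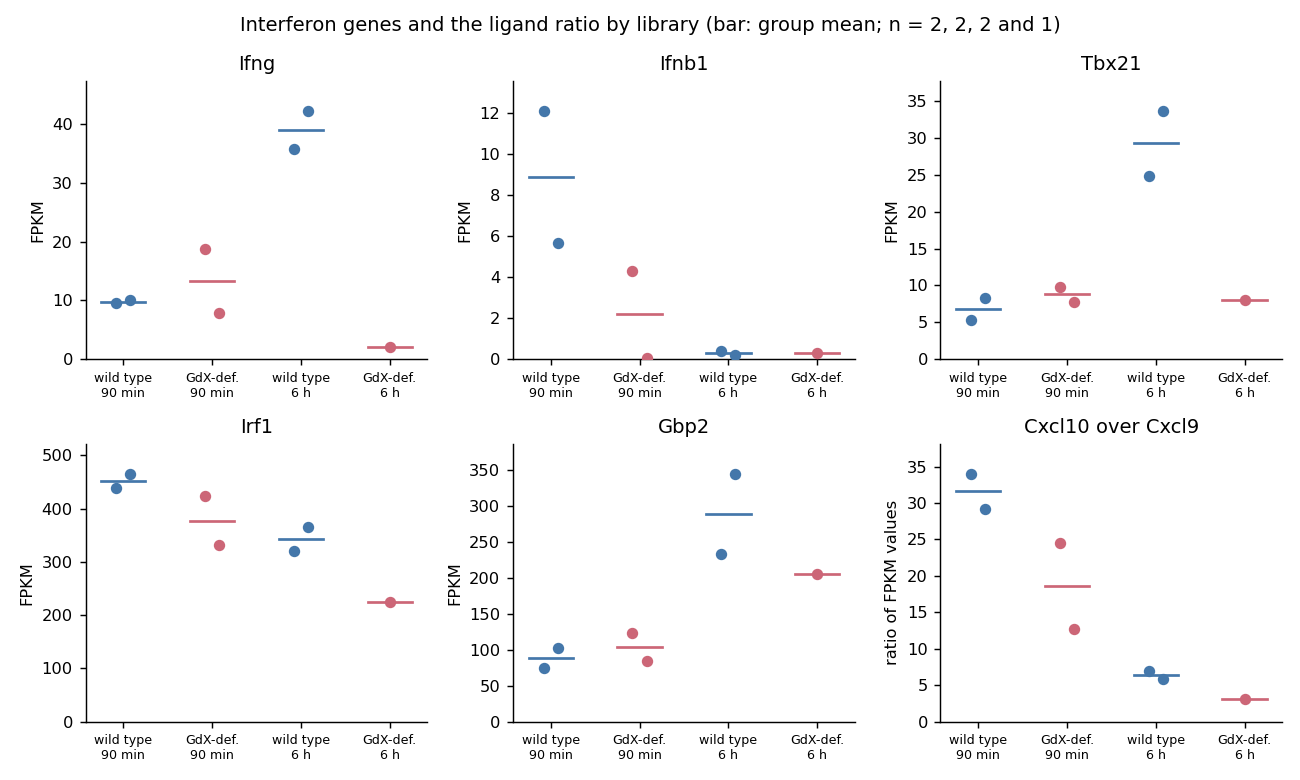
FPKM of Ifng, Ifnb1, Tbx21, Irf1 and Gbp2 and the ratio of Cxcl10 to Cxcl9, on linear axes, with 1 point per library and a bar at the group mean (n = 2, 2, 2 and 1). Ifng is at 35.79 and 42.32 FPKM in the 6 h wild-type pair and at 1.99 FPKM in the 6 h GdX-deficient library, and every 90 min ratio lies above every 6 h ratio.

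The genes that handle these ligands passed in none of the comparisons. The list comprises Dpp4, the protease that trims CXCL9 and CXCL10, and the CXCL16 sheddases Adam10 and Adam17. As related genes it also holds the scavenger receptor Ackr3, the platelet ligand Pf4, and genes of arrestins, G proteins and heparan sulfate. None of the 11 passed by limma for genotype at 90 min (0.0176% of all genes did), for genotype at 6 h (3.96%) or over time in wild type (10.7%). An unadjusted limma p under 0.05 was found for 3 of them at 90 min (7.58% of all genes), 4 at 6 h (28.4%) and 2 over time in wild type (28.7%). At 6 h their median difference was 0.68 against 0.32 for all genes, and over time in wild type -0.41 against 0.05. Adam10 was at 25.74 FPKM in the 6 h GdX-deficient library and at 7.59 and 13.40 FPKM in wild type, a difference of 1.27 (limma adjusted p = 0.0958). Adam17 was at 25.83 against 11.03 and 18.53 FPKM, and Dpp4 at 24.68 against 10.43 and 21.53 FPKM. The values of Ackr3 were 13.93 against 7.90 and 11.76 FPKM. Those of Pf4 were 58.65 against 80.33 and 39.91 FPKM, which overlapped.

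Some members share their place with another gene. Cxcl10 lies wholly inside Art3, which is on the opposite strand, and Cxcr6 lies inside Fyco1, also on the opposite strand. Only whole gene spans were compared, not exons, and whether the counting used the strand is not given in the sources used here. How far reads of these overlapping genes were told apart is therefore not known. Art3 was at 0.63 to 2.53 FPKM over the libraries, far below Cxcl10. Fyco1 was at 1.54 to 6.18 FPKM, which overlaps the 2.39 to 7.65 FPKM of Cxcr6, so the Cxcr6 values carry this uncertainty. Of 6 tested genes that overlap or neighbour the members, none passed in any of the 6 comparisons, in which 0% to 10.7% of all genes did.

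The genes whose pattern was most like each member were taken by Pearson's r of log2(FPKM + 1) over the 7 libraries, as a description, since the libraries also share depth and composition. Cxcl10 was most like Crem (0.993), Rnd1 (0.988) and Il6 (0.984), and 49 genes had an r above 0.9 with it. Cxcl9 was most like Nmnat3 (0.994), Fancf (0.992) and Coq2 (0.991), among 525 such genes. The nearest genes to Cxcl16 were Tubb2a (0.974), Bace2 (0.969) and Galnt18 (0.965), among 46. Cxcr3 was nearest to Trim8 (0.980), Slc39a13 (0.979) and Cbfa2t3 (0.978), among 332, and Cxcr6 to Scp2 (0.989), St3gal6 (0.986) and Cyp39a1 (0.985), among 415. No member was among the nearest genes of another. Cxcl9 and Cxcl10 had an r of -0.318 with each other, Cxcl10 and Cxcr3 of -0.884, and Cxcl9 and Cxcr6 of -0.888.

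With all libraries in 1 model and time as a covariate, which assumes the same genotype difference at both times, none of the 5 members passed, where 0.0439% of all genes did, and 2 had an unadjusted limma p under 0.05, against 27%. Cxcl10 was lower in GdX-deficient libraries by -1.10 (SE 0.32, 95% interval -1.82 to -0.39, limma adjusted p = 0.106) and Cxcr3 was at 0.82 (SE 0.35, limma adjusted p = 0.166). Without GdX-deficient replicate 1 at 90 min both passed, at -1.45 (limma adjusted p = 0.0238) and 1.18 (limma adjusted p = 0.0390). The values of Cxcl9, Cxcl16 and Cxcr6 were -0.19, -0.19 and 0.36.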

How the data were processed

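Spleen RNA libraries were read on the BGISEQ-500 platform, and per the labels' protocols either poly(A) selection or rRNA depletion was used. The authors deposited FPKM values, 1 column per library. The submitters' processing notes name HISAT, HISAT2 2.0.4, Bowtie2, RSEM and GRCm38.p5, without saying what each was used for. No counts were used, and no value was rescaled, so abundant globin genes, 7.73% to 30.9% of a library's FPKM sum, can shift the others. Values were set to log2(FPKM + 1), which understates the change of low genes. The test was limma 3.58.1 (R 4.3.3) on the 11378 genes whose FPKM averaged at least 1, with a trend on mean expression, two-sided, and adjusted by the Benjamini-Hochberg method over all of them at a threshold of 0.05. The design has 1 mouse per library. The 4 groups shared 1 estimate of the spread, and genotype was also fitted with time as a covariate. Script output was tested on simulated data. Groups of 2 libraries limit the precision, and no interval for counting error was computed. Named genes were the members, Ifng, Ifnb1, Irf1, Irf8, Socs1, Dpp4, Adam10, Adam17, Ackr3, Pf4, Art3 and Fyco1 whatever their values, up to 2 genes per direction from each pathway list, and the 3 nearest genes by Pearson's r. The members and lists were chosen with earlier results of these data known. The promoter motifs were shortened after a first search with longer letters, in which Cxcl9 had no interferon-stimulated response element match, had been seen. Outside this rule, Tbx21, Ncr1, Cd3d, Cd3e, Cd8a, Cd28, Lck, Ccl5, Ccr7, Gzma, Gzmb, Il12rb2 and Socs3 were named after their values were seen. Ubl4a, Gm44504 and the globin genes were named as checks of the labels. A further gene of the naming rule is not reported here.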

Additional observations from a re-analysis of the deposited data

Results flagged for a closer look

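In 2 genes the GdX-deficient libraries lay on opposite sides of the wild-type pair at the 2 times. For Cxcl9 the genotype difference at 6 h minus that at 90 min was -1.14 (limma adjusted p = 0.329), with values above wild type at 90 min and below it at 6 h. For Cxcl16 it was 1.52 (limma adjusted p = 0.247), in the opposite order. Neither passed the test of the difference, which has little power with these libraries, so a miss does not show equal differences. Each rests on the single GdX-deficient library at 6 h, and 0.967% of all genes tested changed sides in the order of Cxcl9 and 6.82% in that of Cxcl16.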

How the results depend on the processing

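Alternatives comprised a pseudocount of 0.1, no low-value filter or a mean FPKM of at least 5, quantile normalization, rescaling without globin genes, a replicate block, the compared libraries alone, each library left out and, added after seeing the data, the trend on transcript length removed. Of 195 member results with 1 library left out, 173 kept direction and call, 14 newly passed, 7 reversed and 1 no longer passed, and of 214 under other settings 202, 5, 4 and 3 did. The numbers of genes called moved more. For genotype at 90 min (2) they were 0 without globin genes, 181 with the compared libraries alone, 0 with the length trend removed, and 2 to 183 with a library left out. For genotype at 6 h (450) they were 90 without the filter, 233 with the higher filter, 270 by quantiles, 248 without globin genes, 1144 with the length trend removed and 627 to 3035. Over time in wild type (1218) they were 635 without the filter, 700 without globin genes, 2407 with the length trend removed and 450 to 1774, and in GdX-deficient spleens (0) 22 without the filter, 3 with the length trend removed and 0 to 236. For the interaction (8) they were 0 with the pseudocount, 3 without the filter, 0 with the higher filter, 4 by quantiles, 0 without globin genes, 46 with the length trend removed and 0 to 238. With time as covariate (5) they were 2 without globin genes and 2 to 1674.

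The replicate numbers did not pair the libraries in every group. The correlation of same-numbered deviations was -0.120 between the 90 min groups and 0.0797 between GdX-deficient 90 min and wild-type 6 h libraries. It was 0.768 between wild type at 90 min and wild type at 6 h, so same-numbered wild-type libraries shared a deviation. The source of this deviation was not tested. With the replicate block, genes called were 3383 for genotype at 6 h, 2345 over time in wild type, 37 in GdX-deficient spleens, 80 for the interaction and 12 with time as covariate, Cxcr3 at 6 h was 1.99 and Cxcr6 over time in wild type -0.89.

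At 6 h, Cxcl9 passed at -1.21 with the length trend removed, and Cxcl10 did not pass at -1.90 without the filter, -1.48 by quantiles and -1.63 without globin genes. Cxcr3 at 6 h passed at 1.63 with the length trend removed and with each of 6 libraries left out (1.54 to 1.90). Cxcr6 over time in wild type passed at -0.97 with the length trend removed. Reversed at 90 min were Cxcr6 by quantiles (-0.038) and with 1 library left out (-0.10 to 0.33), and Cxcr3 (-0.21 to 0.65). Over time in wild type Cxcr3 was 0.11 by quantiles and -0.28 to 0.14 with a library left out, and Cxcl9 1.31 to 1.60. In GdX-deficient spleens Cxcl10 (-2.61 to -1.75) passed without any 1 wild-type library and Cxcl16 (1.00 to 1.64) without either 6 h one. With time as covariate, Cxcl9 was 0.043 and Cxcl16 0.039 without globin genes, and with a library left out Cxcl9 was -0.38 to 0.26, Cxcl16 -0.80 to 0.12, Cxcl10 -1.45 to -0.57 and Cxcr3 0.22 to 1.18. The causes were not tested. The higher filter drops Cxcr3. The compared libraries alone were not run where an arm has 1 library. Few fragments limit the precision of Cxcr3 and Cxcr6, at about 62 to 310 in a library.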
